A study of Mus musculus with 64 samples.

Results

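Clock, Npas2 and Arntl encode the activators of the circadian clock, and Rora and Rorb encode 2 nuclear receptors that act on the Arntl gene. These 5 genes were taken by symbol from the 24421 symbols of a count table of the mouse ventral tegmental area, and all 5 were followed through 64 libraries, 1 per mouse. All mice were adult males of the strain labelled 129S1/Svlm, treated for 14 days and killed at zeitgeber time 6, roughly 24 h from their final dose, and bilateral punches of 1 mm were centred on the ventral tegmental area, the midbrain nucleus that holds many dopamine neurons. Valproate (VPA) is a mood stabiliser that also inhibits histone deacetylases, and ACY957 is a histone deacetylase inhibitor. The groups were mice labelled Clock delta 19 mutant on VPA (n = 8) and mice labelled wildtype on VPA (n = 8), mutant on ACY957 (n = 8) and wildtype on ACY957 (n = 8), mutant on the vehicle of VPA (n = 13) and wildtype on that vehicle (n = 3), and mutant on the vehicle of ACY957 (n = 11) and wildtype on that vehicle (n = 5). Clock delta 19 is a germline allele that all tissues carry, so the labels mark whole mutant animals rather than a change in 1 cell type. Whether the mutant animals carried 1 or both mutant copies is not given in the sources used here.

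CLOCK pairs with BMAL1, the product of Arntl, and the pair binds E-boxes to switch on the Period and Cryptochrome genes, whose products then repress the pair. NPAS2 is a close relative of CLOCK that can take its place beside BMAL1, and it is best known from the forebrain. ROR proteins activate Arntl through short elements that the REV-ERB repressors, encoded by Nr1d1 and Nr1d2, also bind, so Arntl runs in the opposite phase to the E-box genes. The Clock delta 19 protein lacks the stretch encoded by exon 19, still pairs with BMAL1 and activates poorly.

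On mm10, by GENCODE M21, Clock lies at chr5:76209868-76304792 on the minus strand, Npas2 at chr1:39193731-39363236 on the plus strand and Arntl at chr7:113207465-113314126 on the plus strand. Rora spans chr9:68653786-69388246 on the plus strand and Rorb chr19:18930605-19111196 on the minus strand. The antisense genes Gm45355 and Gm15511 overlap Arntl and Rora, and whether counting kept the strands apart is not given in the sources used here.

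2 sequences bear on what the counts can and cannot show. The first is Clock exon 19, the exon that the mutant transcript skips, at chr5:76231396-76231548 on the minus strand of mm10 in transcript Clock-205 of GENCODE M21. It has 153 of the 9744 bases of that transcript, or 1.57%, so the gene count of Clock could not check the allele.
Clock exon 19: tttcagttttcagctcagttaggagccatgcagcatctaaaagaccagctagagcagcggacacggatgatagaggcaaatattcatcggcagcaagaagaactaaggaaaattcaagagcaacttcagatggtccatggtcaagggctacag
The second is an Arntl promoter window of 300 bases from RefSeq (GRCm38.p6), at chr7:113207261-113207560 on the plus strand, with matches to TAGGTTA and TAGGTCA, the cores of ROR elements, in capitals.
Arntl promoter: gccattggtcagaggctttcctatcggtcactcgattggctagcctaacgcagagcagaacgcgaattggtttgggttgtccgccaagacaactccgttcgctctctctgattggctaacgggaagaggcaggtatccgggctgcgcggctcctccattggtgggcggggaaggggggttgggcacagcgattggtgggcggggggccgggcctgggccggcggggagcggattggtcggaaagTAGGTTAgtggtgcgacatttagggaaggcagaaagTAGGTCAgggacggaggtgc
The first match began 6 bases before the annotated start (position -6) and the second at position 30. Both strands of 9 RefSeq windows of the 5 genes were searched for both ROR cores, for the E-box (CACGTG) and for the D-box (TTATGTAA). The other Arntl window overlaps this one and holds the same TAGGTTA, and no other window had a match to any of them. Over all 32851 windows of this length, 2.61% held TAGGTCA, 1.44% held TAGGTTA, 7.15% held CACGTG, 0.938% held TTATGTAA, and 16 (0.0487%) held both ROR cores. These matches describe letters in the window and not bound sites.

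Library totals ran from 20.1 to 37.5 M counts, with a median of 25.8 M. The targeted gene cannot check the genotype labels, so a clock output score was used, the mean log2 CPM (CPM is the read count scaled to library size, here with TMM factors) of Dbp, Tef, Per2, Per3, Nr1d1, Nr1d2, Ciart and Bhlhe41. The score fell into 2 sets with a gap of 0.58 between 4.33 and 4.91. The lower set held 28 of the 40 libraries labelled mutant and 1 of the 24 labelled wildtype, and the upper set held the other 12 labelled mutant and the other 23 labelled wildtype. Of the libraries labelled mutant on a vehicle, 7 of 8 from mice 32 to 39 were in the lower set, against 8 of 16 from mouse 48 on. The design states 8 mice per group, which the vehicle labels do not give, so every fold change test was repeated without those 16 libraries, while the correlations were not. Mice 1 to 24 were labelled wildtype and mice 25 to 64 mutant, so genotype cannot be told apart from anything else that followed the mouse number. No library was moved, and the groups below are those of the labels.

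In CPM per kilobase of exon, a scale that allows genes to be compared, Rora averaged 5.71 ± 0.62, Clock 5.14 ± 0.67, Arntl 2.61 ± 0.68, Rorb 1.38 ± 0.22 and Npas2 0.861 ± 0.242 (SD, n = 64). Clock exceeded Npas2 in 64 of 64 libraries, by a median of 5.96 times. Rora exceeded Rorb in 64 of 64, by a median of 4.13 times, and Arntl exceeded Rorb in 63 of 64. Clock and Rora, the top pair, overlapped, since Clock was the higher in 13 of 64 libraries. With the length of the longest coding transcript in place of all exons, the averages were 7.24 for Clock, 6.86 for Rora, 6.60 for Arntl, 1.65 for Rorb and 0.974 for Npas2, so the order of the top 3 depended on the gene model while the places of Rorb and Npas2 did not. Counts per library were 57 to 224 for Npas2, 249 to 698 for Rorb, 268 to 778 for Arntl, 1018 to 2915 for Rora and 1142 to 2501 for Clock. Npas2 was thus the least precisely measured, with a counting error of about 9.83% at its median count against 2.34% for Clock.

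**Figure D1:**
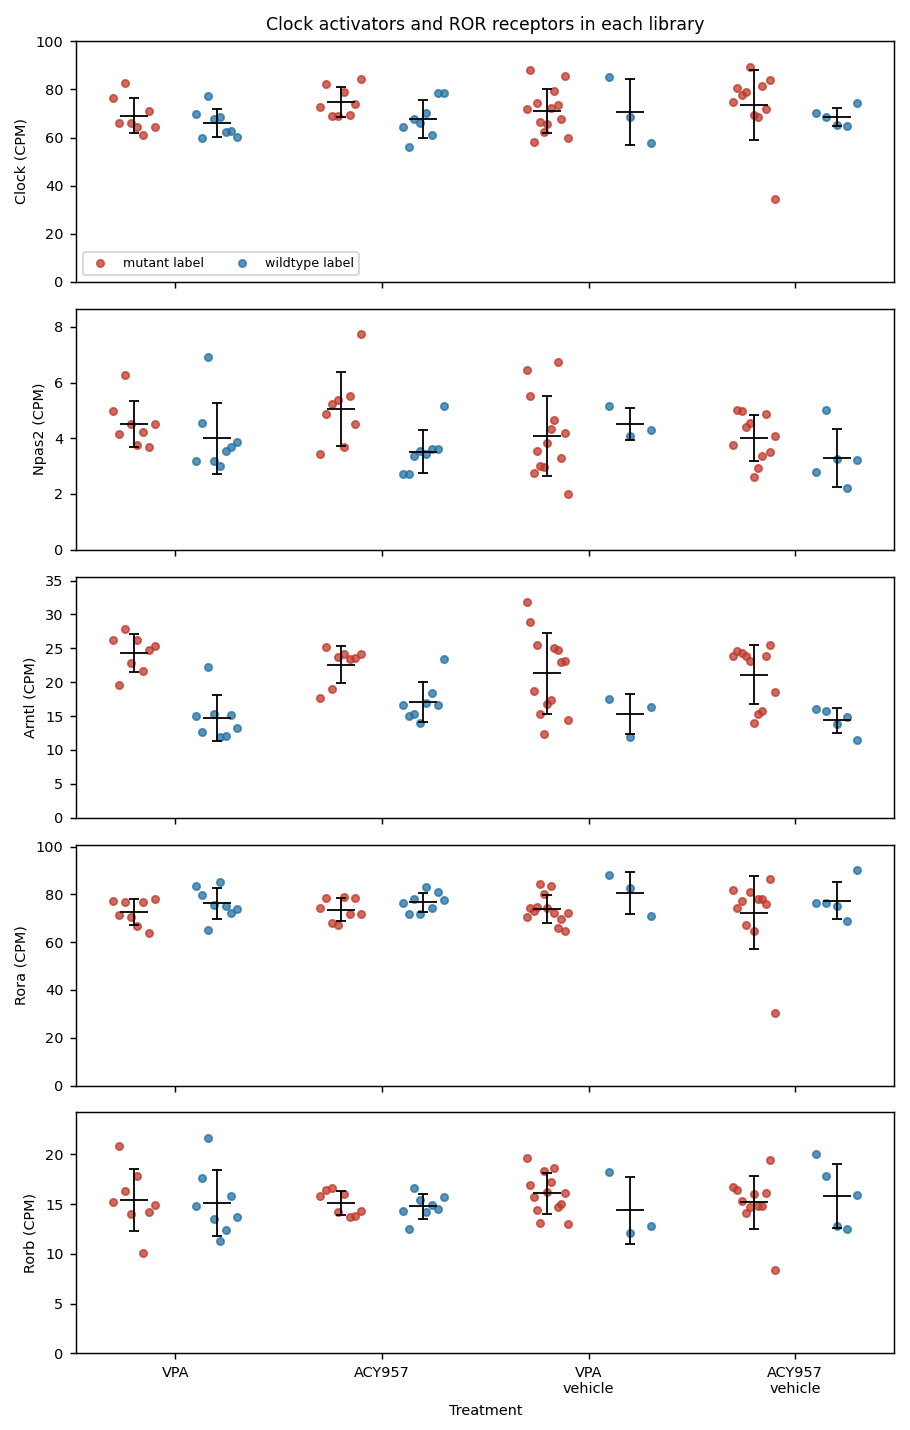
CPM (vertical axis of each panel) of Clock, Npas2, Arntl, Rora and Rorb in each library by treatment, with the mutant label in red at the left and the wildtype label in blue at the right of each pair, and the mean and SD in black. Arntl is the gene whose red points sit mostly above the blue, and 1 mutant-labelled library on the ACY957 vehicle is far below the others for Clock and Rora.

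Arntl, the partner of both CLOCK and NPAS2, was higher in libraries labelled mutant under all 4 treatments. Over the 4 treatments the group means averaged 22.3 CPM in mutant and 15.3 CPM in wildtype libraries, a 1.46-fold rise (log2 fold change 0.54, SE 0.08, edgeR quasi-likelihood test, Benjamini-Hochberg adjusted p = 1.09e-05). This comparison called 252 of 15634 genes (1.61% of those tested), 0.768% higher and 0.844% lower, and Arntl ranked 8 by p. Of the 40 mutant-labelled libraries, 37 were above the wildtype median and 21 above every wildtype library, so the labels overlapped. Without the 16 vehicle libraries the difference was 0.67 (adjusted p = 2.52e-09), and it lay between 0.51 and 0.57 when each library was left out in turn.

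On VPA, Arntl had a lowest, median and highest value of 19.6, 25.1 and 27.9 CPM in mutant libraries, against 11.9, 14.1 and 22.2 CPM in wildtype libraries. Of the 8 mutant libraries, 6 were above all 8 wildtype ones, and the overlap came from wildtype replicate 3. The log2 fold change was 0.73 (SE 0.14, adjusted p = 0.00345) in a comparison that called 157 of 15634 genes (1%), 0.71% higher and 0.294% lower. On ACY957 the values were 17.7, 23.6 and 25.1 CPM in mutant libraries, against 13.9, 16.6 and 23.5 CPM in wildtype libraries. There 5 of 8 mutant libraries were above every wildtype one, and the difference of 0.41 in log2 CPM (SE 0.14, adjusted p = 0.826) did not pass in a comparison that called no gene (0%). That count of 0 by edgeR stood beside 757 genes at an unadjusted p under 0.05, 5 calls by DESeq2 and 0 by limma voom.

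On the vehicle of VPA, Arntl had a lowest, median and highest value of 12.4, 23.03 and 31.8 CPM in mutant libraries, against 17.6, 11.9 and 16.3 CPM in the 3 wildtype libraries. The log2 fold change was 0.48 (SE 0.19, adjusted p = 0.913), with 8 of 13 mutant libraries above all wildtype ones (0.0064% of genes called). On the vehicle of ACY957 it had 13.9, 23.8 and 25.5 CPM in mutant libraries, against 16.02, 15.8, 13.8, 14.9 and 11.4 CPM in the 5 wildtype libraries. The log2 fold change was 0.55 (SE 0.16, adjusted p = 0.601), with 8 of 11 mutant libraries above all wildtype ones (0.0128% of genes called). Without the 16 libraries from mouse 48 on, the log2 fold changes became 0.79 (adjusted p = 0.0908) on the vehicle of VPA and 0.75 (adjusted p = 0.0112) on that of ACY957. In mutant libraries on the vehicle of VPA, Arntl averaged 19.1 ± 4.87 CPM from mouse 48 on (SD, n = 9). It averaged 26.2 ± 5.62 CPM in mice 32 to 39 (n = 4). On the vehicle of ACY957 it averaged 19.4 ± 4.72 CPM from mouse 48 on (n = 7). There it averaged 24.1 ± 0.386 CPM in mice 32 to 39 (n = 4). The averages from mouse 48 on mix both clock output score sets. On the vehicle of VPA, upper-set mice 49 to 52 and 57 had 12.4 to 17.4 CPM. Lower-set mice 53 to 56 had 23.03 to 25.1 CPM. On that of ACY957, upper-set mice 59 to 61 had 13.9 to 15.7 CPM. Lower-set mice 48 and 62 to 64 had 18.5 to 25.5 CPM. In mice 32 to 39 the 1 upper-set library, mouse 34, had 18.7 CPM. Whether mouse number mattered within a set was not tested.

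Npas2, the alternative partner of BMAL1, did not pass in any comparison. Its group means averaged 4.42 CPM in mutant and 3.83 CPM in wildtype libraries over the 4 treatments (log2 fold change 0.21, SE 0.10, adjusted p = 0.33 by edgeR). Its widest gap was on ACY957, with 3.45, 5.06 and 7.73 CPM as the lowest, median and highest in mutant libraries, against 2.71, 3.49 and 5.17 CPM in wildtype libraries. The log2 fold change there was 0.52, with an SE of 0.19 and an adjusted p of 0.842, with 7 of 8 mutant libraries above the wildtype median. On the vehicle of VPA the sign was the opposite, at -0.14 (SE 0.24), with 3 wildtype libraries of 5.17, 4.09 and 4.28 CPM.

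Clock itself averaged 72.2 CPM in mutant and 68.3 CPM in wildtype libraries over the 4 treatments (log2 fold change 0.08, SE 0.05, adjusted p = 0.516 by edgeR). Its log2 fold changes within treatments lay between 0.01 and 0.14, none past the threshold. On the vehicle of ACY957 its value of 0.10 lay between 0.07 and 0.18 when each library was left out in turn. The allele alters splicing, and a level of the whole gene that did not pass the test says nothing of the protein.

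Rora, the receptor with the higher level of the pair, had the opposite sign, with 73.1 CPM in mutant and 77.7 CPM in wildtype libraries (log2 fold change -0.09, SE 0.05, adjusted p = 0.419 by edgeR). It was below 0 under each of the 4 treatments, from -0.13 to -0.06, without passing. Without mutant replicate 11, its value of -0.10 on the vehicle of ACY957 was -0.016. Rorb averaged 15.4 CPM in mutant and 15.02 CPM in wildtype libraries (log2 fold change 0.04, SE 0.06, adjusted p = 0.834), and its sign differed between treatments, from -0.06 on the vehicle of ACY957 to 0.16 on the vehicle of VPA. Arntl was thus the only one of the 5 genes called, on VPA and over the 4 treatments. That the others did not pass does not show that their levels were equal.

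**Figure D2:**
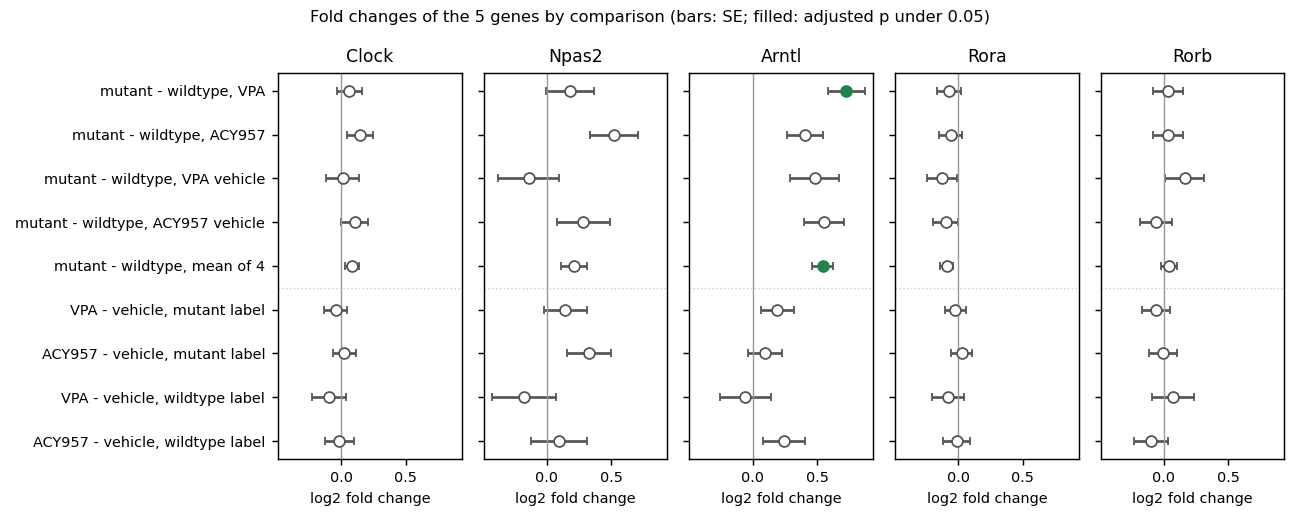
Log2 fold changes (horizontal axis) with SE bars of the 5 genes, 1 panel each, for the mutant minus wildtype label under each treatment and over the 4, and for each drug minus its vehicle under each label; filled points passed an adjusted p of 0.05. The filled points are those of Arntl on VPA (0.73) and over the 4 treatments (0.54).

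Neither drug changed any of the 5 genes past the threshold under either label. These comparisons called few genes of 15634: 9 (0.0576%, of which 0.0512% higher and 0.0064% lower) for VPA and 1 (0.0064%) for ACY957 in mutant libraries, and 4 (0.0256%) for VPA and 1 (0.0064%) for ACY957 in wildtype libraries. Arntl averaged 24.3 ± 2.77 CPM on VPA (SD, n = 8) and 21.3 ± 5.94 CPM on its vehicle (n = 13) in mutant libraries, and the log2 fold change was 0.19, with an SE of 0.13 and an adjusted p of 0.531 by edgeR. Without the 16 vehicle libraries that value was -0.11, so its sign rested on them. In wildtype libraries Arntl averaged 14.7 ± 3.35 CPM on VPA (n = 8) and 15.3 ± 2.97 CPM on its vehicle (n = 3), a log2 fold change of -0.06 (SE 0.19).

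ACY957 gave Arntl 22.6 ± 2.70 CPM against 21.1 ± 4.36 CPM on its vehicle in mutant libraries (log2 fold change 0.10, SE 0.13, and -0.09 without the 16). In wildtype libraries it gave 17.1 ± 2.94 CPM against 14.4 ± 1.86 CPM (log2 fold change 0.24, SE 0.16). Npas2 had its largest drug difference on ACY957 in mutant libraries, 5.04 ± 1.32 CPM against 4.01 ± 0.834 CPM on the vehicle (log2 fold change 0.33, SE 0.17, adjusted p = 0.797). Clock, Rora and Rorb stayed within 0.10 of 0 on the log2 scale in all 4 drug comparisons, with SE of 0.08 to 0.16. The drug effects did not differ between the labels for any of the 5 genes past the threshold in the interaction test. The largest such difference was 0.32 (SE 0.30, adjusted p = 1.00) for Npas2 on VPA, in tests that called 1 gene (0.0064%) for VPA and none (0%) for ACY957. The count of 0 for ACY957 by edgeR stood beside 287 genes at an unadjusted p under 0.05 and 0 calls by DESeq2 and by limma voom.

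Genes that the activators drive were lower in mutant libraries. Over the 4 treatments, 10 of 10 clock repressors with E-boxes were called lower (median log2 fold change -0.49, against 0.00 over all genes tested, of which 0.844% were called lower). Among them Ciart, a repressor of CLOCK and BMAL1, averaged 3.34 CPM in mutant and 7.73 CPM in wildtype libraries (log2 fold change -1.28, SE 0.24, adjusted p = 0.000623). Per2, a repressor of the same pair, averaged 3.38 CPM in mutant and 7.40 CPM in wildtype libraries (-1.14, SE 0.18, adjusted p = 3.95e-05). Nr1d2, which encodes REV-ERB beta, fell by 0.61 and Nr1d1, which encodes REV-ERB alpha, fell by 0.31 on the log2 scale. Of the E-box output factors and enzymes, 8 of 8 had a log2 fold change below 0 and 6 of 8 were called lower. Dbp, an output transcription factor, averaged 39.8 CPM in mutant and 70.4 CPM in wildtype libraries (-0.84, SE 0.14, adjusted p = 5.17e-05), and Tef, Hlf, Usp2, Wee1 and Coq10b were the others.

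Among genes with ROR elements outside the 5 described here, Nfil3, a repressor at D-boxes, rose beside Arntl. It averaged 8.75 CPM in mutant and 6.74 CPM in wildtype libraries (log2 fold change 0.38, SE 0.08, adjusted p = 0.00595). Cry1 and Nr1d1, which are also on the E-box list, fell, and Ppargc1a (-0.03) did not pass. None of 9 coregulators of ROR and REV-ERB passed, among them Ncor1 and Hdac3. Of 10 kinases and ubiquitin ligases of the clock, 8 had a log2 fold change below 0 and 1 was called lower. The 1 called was Csnk1e, casein kinase 1 epsilon, lower by 0.13 on the log2 scale (adjusted p = 0.0482 by edgeR). On VPA alone, where 0.294% of all genes tested were called lower, 5 of 10 E-box repressors and 4 of 8 output genes were called lower. There 10 of 10 and 8 of 8 of them had a log2 fold change below 0. No gene of these lists passed in the other comparisons. These lists were drawn up with earlier results of these data known, so their counts are a description.

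**Figure D3:**
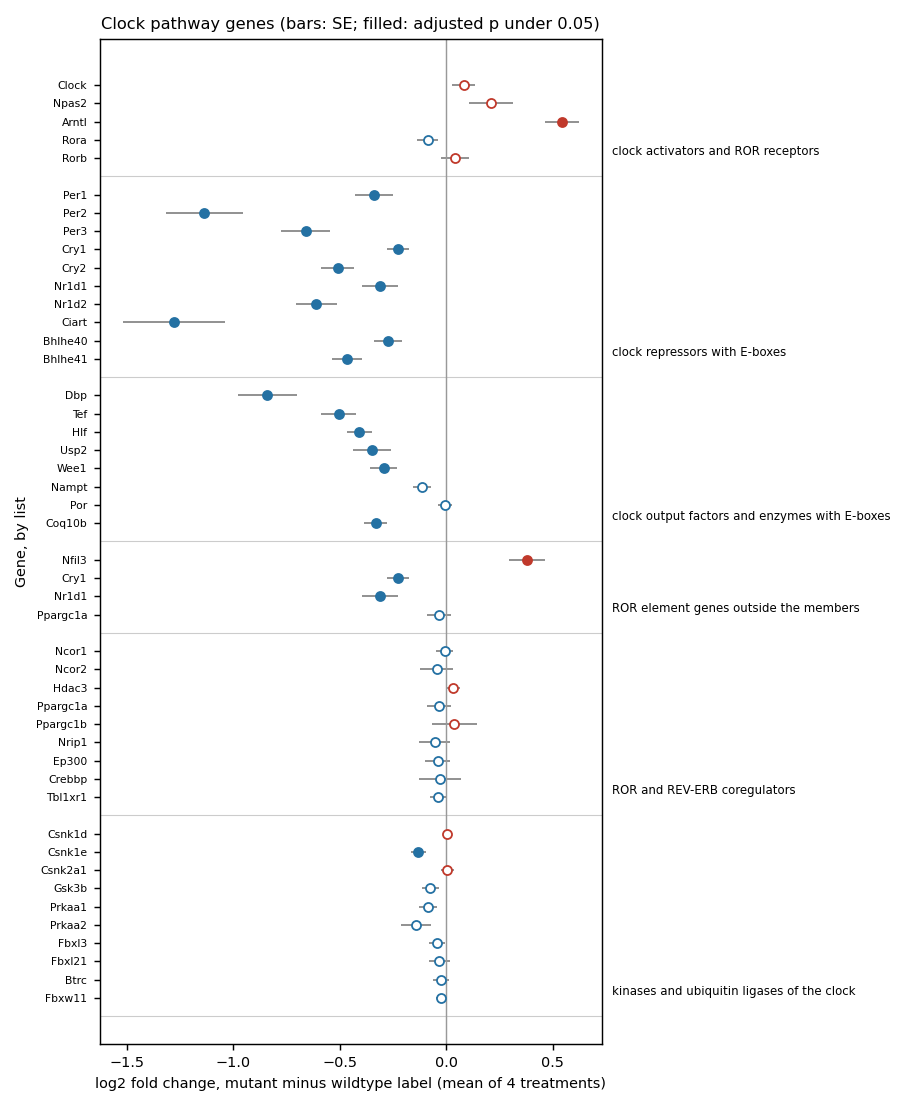
Log2 fold changes (horizontal axis, mutant minus wildtype label, mean of 4 treatments) with SE bars of clock genes grouped by list; filled points passed an adjusted p of 0.05, with red for higher and blue for lower in mutant libraries. Arntl (0.54) and Nfil3 (0.38) are the filled red points, and the E-box repressors are all filled blue.

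Within the mutant label, Arntl was 12.4 to 19.6 CPM in the 12 libraries of the upper score set. It was 18.5 to 31.8 CPM in the 28 libraries of the lower set. That difference between the sets was not tested. Within the sets, Arntl followed the clock output score in 1 of them and not in the others. Correlations were computed within label and score set, since the libraries form separate clusters, with 5 genes per family. In the 12 mutant-labelled libraries of the upper set, Arntl was lower where the score was higher (Pearson r = -0.774, permutation p = 0.00298, adjusted p = 0.0149; Spearman rho = -0.769, permutation p = 0.00502, adjusted p = 0.0251). Without the 2 libraries farthest from the median Arntl level r was -0.586. Of these 12 libraries, 8 are vehicle libraries from mouse 48 on, and the other 4 are too few for a correlation. In the 28 mutant-labelled libraries of the lower set r was 0.264 (rho = 0.282, permutation p = 0.177 and 0.146), and in the 23 wildtype-labelled libraries of the upper set r was -0.265 (rho = -0.121, permutation p = 0.223 and 0.585). The wildtype-labelled library in the lower set, replicate 8 on ACY957, had 23.5 CPM of Arntl, the highest of all 24 wildtype libraries. No other of the 5 genes passed in any of these sets.

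**Figure D4:**
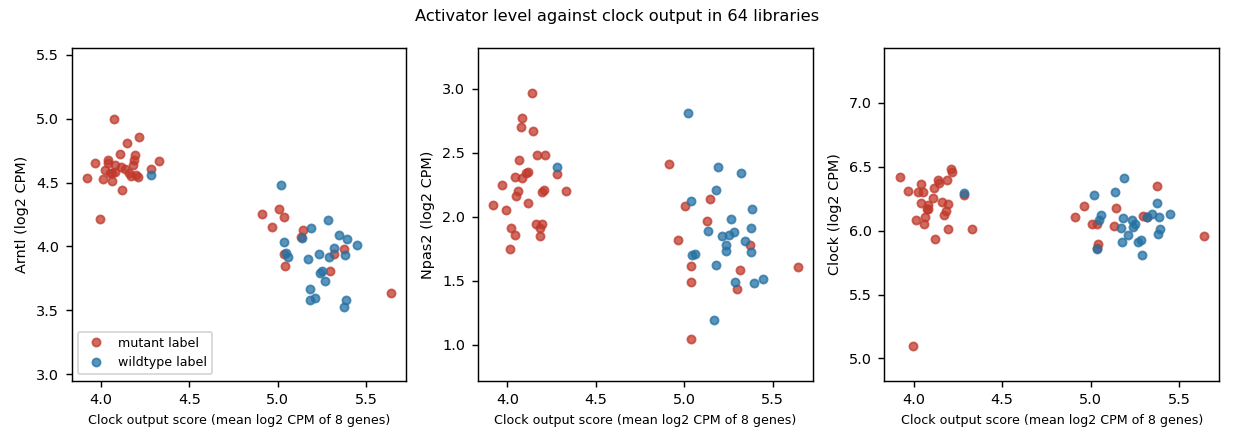
Log2 CPM of Arntl, Npas2 and Clock (vertical axes) against the clock output score (horizontal axis, mean log2 CPM of 8 genes) in 64 libraries, mutant label in red and wildtype label in blue. The score leaves a gap between 4.33 and 4.91, with 12 red points to its right and 1 blue point to its left.

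Among themselves, 6 of 10 pairs of the 5 genes passed by Pearson r in the mutant-labelled lower set, and 1 of them, Arntl and Rorb, by Spearman rho as well. In that set (n = 28), Arntl and Rorb had r = 0.783 and rho = 0.664 (permutation p = 2e-05 and 0.00017, adjusted over 10 pairs p = 0.0002 and 0.0017), and r was 0.587 without the 2 farthest libraries. Clock and Rora had r = 0.816 there (permutation p = 0.0033, adjusted p = 0.011), but rho was 0.386 (permutation p = 0.0451, adjusted p = 0.15) and r was 0.342 without the 2 farthest libraries, so the relation rested on those. The other 4 pairs, Clock with Rorb, Clock with Arntl, Arntl with Rora and Rora with Rorb, had r of 0.532 to 0.732 and at most 0.242 without the 2 farthest libraries. Mutant replicate 11 on the vehicle of ACY957 was the library that stood apart, with 34.3 CPM of Clock, 30.5 of Rora and 8.34 of Rorb, each the lowest of 64, in a library of 31.7 M counts. In the 23 wildtype-labelled libraries of the upper set no pair passed. There 2 pairs passed by Pearson r on deviations from the treatment means and 4 without TMM factors, Arntl with Rorb in both (r = 0.592 and 0.538).

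Clock and Rora, both long transcripts, moved with a measure of each library that was added after the data were examined. It is the length trend, the change in log2 CPM per 10-fold of transcript length over 15068 genes, and it ran from -0.484 to 0.399, the lowest value being that of mutant replicate 11 above. Clock and Rora are among those genes, and long transcripts as a group rise with this trend by its definition. The r was not computed for other long transcripts, so the values below are a description and show nothing particular to these 2 genes. In the 23 wildtype-labelled libraries of the upper set, Clock was higher where the trend was higher (r = 0.849, rho = 0.855, permutation p = 1e-05 for both, the smallest these permutations can give, adjusted p = 5e-05), and r was 0.787 without the 2 farthest libraries. Rora did so too (r = 0.675, rho = 0.692, permutation p = 0.00052 and 0.0004, adjusted p = 0.0013 and 0.001), with r = 0.711 without the 2 farthest. In the mutant-labelled lower set Clock had r = 0.734 (rho = 0.834, permutation p = 1e-05 for both, adjusted p = 5e-05) and 0.811 without the 2 farthest. In that mutant set Rora had r = 0.542 (permutation p = 0.00119, adjusted p = 0.00298), and 0.370 without the 2 farthest. In the 12 mutant-labelled libraries of the upper set neither gene passed (r = 0.513 for Clock and 0.363 for Rora). Rorb did not pass, with r = 0.375 in the wildtype upper set and 0.325 in the mutant lower set. Its longest coding transcript has 9293 bases, against 9744 for Clock. Arntl had r = -0.031 in the wildtype upper set (permutation p = 0.887) and 0.18 in the mutant lower set (permutation p = 0.363). The median trend was -0.135 in mutant and -0.024 in wildtype libraries on VPA, -0.045 in mutant and 0.151 in wildtype libraries on ACY957, and -0.058 in mutant and 0.126 in wildtype libraries on the vehicle of VPA. The order was the opposite on the vehicle of ACY957, at 0.118 in mutant and -0.0083 in wildtype libraries. Its part in the values of Clock and Rora was not tested.

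**Figure D5:**
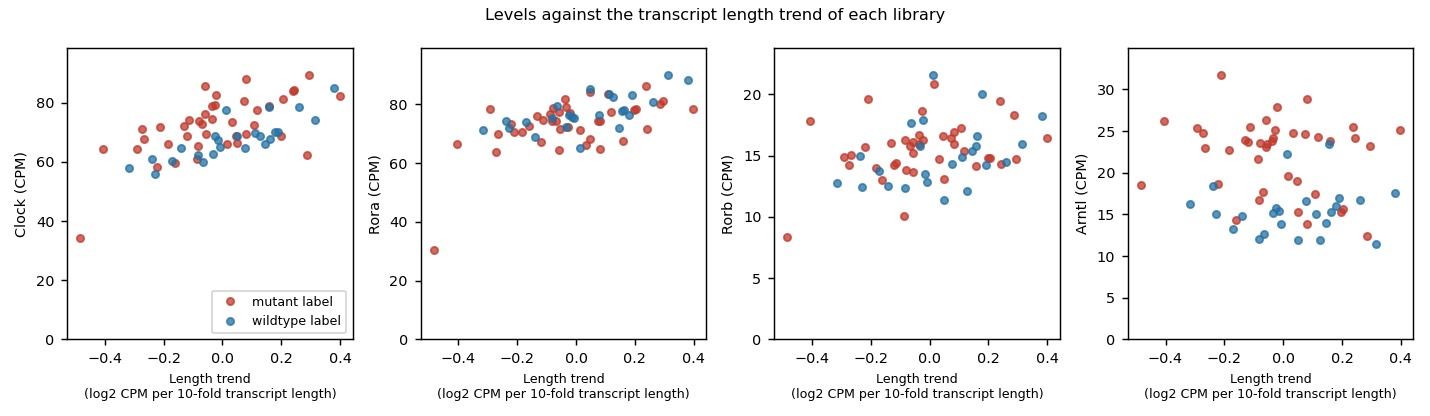
CPM of Clock, Rora, Rorb and Arntl (vertical axes) against the length trend of each library (horizontal axis, log2 CPM per 10-fold transcript length), mutant label in red and wildtype label in blue. Clock and Rora climb from left to right, and the point at -0.484 is the lowest for Clock, Rora and Rorb.

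Markers of the punch moved with some of these genes, and in bulk tissue fewer cells of a type and less RNA per cell cannot be told apart. Th, which encodes tyrosine hydroxylase of dopamine neurons, was present in all libraries but under 8 log2 CPM in 4 of them, at 26.3 and 44.2 CPM in mutant replicates 8 and 2 on VPA, 202 CPM in a mutant library on the vehicle of VPA and 98.0 CPM in wildtype replicate 3 on VPA. Within the 23 wildtype-labelled upper-set libraries Arntl was lower where Th was higher (r = -0.722, rho = -0.643, permutation p = 2e-05 and 0.0011, adjusted over 50 relations p = 0.0005 and 0.0275), with r = -0.608 without the 2 farthest. Arntl was higher where 4 endothelial markers were higher (r = 0.598, rho = 0.605, permutation p = 0.00243 and 0.00248, adjusted p = 0.0371 and 0.0339; r = 0.515 without the 2 farthest). Rorb was higher there where 8 thalamic markers were higher by Pearson r (0.594, permutation p = 0.00297, adjusted p = 0.0371). Its rho with them was 0.486 (permutation p = 0.0203, adjusted p = 0.153), and r was 0.391 without the 2 farthest. In the mutant-labelled lower set Npas2 was higher where 5 cortical and hippocampal markers were higher (r = 0.601, rho = 0.569, permutation p = 0.00069 and 0.00189, adjusted p = 0.0345 and 0.0265; r = 0.496 without the 2 farthest). Of the 4 low-Th libraries, 1 is in that wildtype set, replicate 3 on VPA. Without it (n = 22) r was -0.574 between Arntl and Th (permutation p = 0.00478, adjusted p = 0.0797) and 0.519 between Arntl and the endothelial markers (permutation p = 0.0135, adjusted p = 0.169), in the same directions and no longer past the threshold. In the mutant-labelled lower set Arntl and Th had r = -0.434 with all 28 libraries (rho = -0.623, permutation p = 0.0476 and 0.0005, adjusted p = 0.479 and 0.025). Without its 1 low-Th library (n = 27) r was -0.652 (rho = -0.606, permutation p = 0.00015 and 0.00105, adjusted p = 0.0075 and 0.0263), and it was -0.607 without the 2 farthest of those.

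Some of these markers also passed between labels, and their part in the Arntl values was not tested. On VPA, 0 of 8 dopamine markers passed and 8 of 8 were lower, with a summed level of 281 to 8888 CPM in mutant and 886 to 12298 CPM in wildtype libraries. On ACY957, 8 of 8 dopamine markers were higher in mutant libraries (median log2 fold change 0.27, 0 passed), with sums of 4389 to 8881 CPM in mutant and 2545 to 9283 CPM in wildtype libraries. They were lower in 8 of 8 cases on the vehicle of VPA (median -0.43) and 5 of 8 on that of ACY957 (median -0.03), with none past the threshold. Of 4 endothelial markers on VPA, all detected, Cldn5, a tight junction gene, passed with a log2 fold change of 0.55 (adjusted p = 0.0361), with sums of 155 to 173 CPM in mutant and 96.7 to 181 CPM in wildtype libraries. Endothelial medians were -0.15 on ACY957, 0.24 on the vehicle of VPA and 0.07 on that of ACY957, with none past the threshold. Of 6 measured hypothalamic markers of 8 listed, on VPA, the neuropeptides Hcrt (4.14) and Pmch (4.10) passed. The sums of the 6 markers were 12.2 to 598 CPM in mutant libraries, with a median of 33.1 CPM. In wildtype libraries they were 10.1 to 39.4 CPM, with a median of 16.5 CPM, so the highest mutant sum lay far above the mutant median. Over the 4 treatments Cldn5 (0.34) and Pmch (1.23) were called higher. Vip (-0.57) and 4 of 6 microglial markers (Csf1r, Cx3cr1, P2ry12 and Tmem119, from -0.30 to -0.17) were called lower, and 6 of 6 microglial markers were below 0. Of all genes tested, 0.768% were called higher and 0.844% lower. Without the 4 low-Th libraries the Arntl difference was 0.88 on VPA (adjusted p = 0.0011) and 0.58 over the 4 treatments (adjusted p = 3.99e-06).

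The genes whose log2 CPM was most like each of the 5 over all 64 libraries were ranked by Pearson r, as a description of libraries that share depth, score set and length trend. Arntl was closest to Nfil3 (0.855), then Olfr287, Vstm4, Cldn5 and Rgs4 (0.728 for the last). Npas2 was closest to Zfp180 (0.650), then Ddn, Arntl (0.622) and Crym. Clock was closest to Ap1g1 (0.809), then Creb1, Zfp445, AW549877 and Fam63b (0.794). Rora was closest to Bmpr2 (0.910), then Tsc22d2, Tpp2, Gabrb2 and Gucy1a2 (0.877). Rorb was closest to Thrb (0.739), then Nfib, Dmd, Dixdc1 and Tjp1 (0.716). At the other end, Arntl had its lowest r with Cndp2 (-0.933), Dbp (-0.932) and Mthfd1l (-0.903), which were named after their values were seen. On deviations from the 8 group means, 2 of the 5 genes closest to Arntl were again among its closest 5, against 4 of 5 for Clock and for Rora.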

How the data were processed

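The authors deposited raw read counts per gene symbol, with no normalization. Alignment was to mm10, with TopHat2 2.0.9 according to the series' design text and HISAT2 according to the submitters' processing notes, so the aligner is not settled; counting was by HTSeq 0.6.1 with its default union setting. The kit kept strand, but the strand setting of the counting is not given in the sources used here. Reads of the antisense partners of Arntl (Gm45355) and Rora (Gm15511) and of the antisense pseudogene Gm20428 inside Npas2 could thus not be told apart from theirs. On their own strand, Npas2 is overlapped by the pseudogene Gm3617, and Clock by Gm43658 and the pseudogene Ube2n-ps1. A strand setting could not separate these.

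Counts were fitted in edgeR 4.0.16 (R 4.3.3) with filterByExpr, TMM and the quasi-likelihood test, as a single fit to 64 libraries in 8 groups and 15634 genes, and adjusted by Benjamini-Hochberg with a threshold of 0.05. Each SE was derived from the fold change and its F statistic. The alternatives were DESeq2 1.42.0, limma voom (limma 3.58.1), no filter, only the compared groups, pooled vehicles, and leaving out 16 late vehicle libraries, 4 libraries with Th under 8 log2 CPM or each library in turn. Correlations used 100000 permutations, two-sided. The steps were tested on simulated data. Labels name separate mice as replicates.

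The 5 genes and the gene lists were chosen with earlier results of these data known. Named were the 5 genes always, pathway genes past the threshold (up to 12 per comparison by p), set markers, and the 5 genes of highest r with each, predicted genes left out. Nr1d1, Cry1, Usp2, Csnk1e and the clock genes and coregulators named as not passing fell outside that rule or its limit and were named after their values were seen. Some genes the rule or lists hold are not reported here. Of 24421 symbols, 23376 matched GENCODE M21, used for positions and lengths.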

Additional observations from a re-analysis of the deposited data

Results flagged for a closer look

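Among 25 combinations of gene and group, with 4 to 10 libraries each, 2 held a value marked as far from the others. Chance marks about 1 in 20. The vehicle groups of 13, 11 and 3 libraries were not tested. Npas2 was 5.17 CPM in wildtype replicate 8 on ACY957, above the other 7 libraries at 2.71 to 3.63 CPM. That library was also the wildtype-labelled one in the lower clock output set. Arntl was 22.2 CPM in wildtype replicate 3 on VPA, above the other 7 at 11.9 to 15.4 CPM. Th in that library was 98.0 CPM.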

How the results depend on the processing

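Arntl kept its direction and stayed past the threshold on VPA and over the 4 treatments under all 7 alternatives and each library left out. Its adjusted p there ran up to 0.0155 on VPA and 0.000205 over the 4 treatments. On the vehicle of ACY957 it passed without the 16 vehicle libraries from mouse 48 on, at 0.75. Of 1665 repeats over 55 results of the 5 genes, 1604 kept direction and side, and the 60 that changed sign were of results not called. No paired analysis was possible because every mouse has its own number and replicates were numbered in accession order. The cause was not tested for the values below, beyond fewer libraries where some were left out. Npas2, at about 100 counts, had the largest counting error of the 5 genes, about 9.83%. Its SD over the 64 libraries was 28.1% of its mean, and the part of depth in that was not tested.

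Signs that turned in log2 fold change, without the 16 libraries, were those of Npas2 on the vehicle of VPA between labels (0.017) and on VPA against vehicle in mutants (-0.0091), of Arntl on VPA (-0.11) and ACY957 (-0.094) against vehicle in mutants, of Clock (-0.057) and Rora (-0.031) on ACY957 against vehicle in mutants, and of the interactions of Arntl on VPA (-0.057), Clock on ACY957 (-0.043) and Rora on ACY957 (-0.022). With pooled vehicles they were Npas2 (0.11) on the vehicle of VPA and Rorb (0.035) on that of ACY957 between labels, Npas2 (0.091) and Rorb (-0.017) on VPA and Npas2 (-0.090) on ACY957 against vehicle in wildtypes, and the ACY957 interaction of Rorb (-0.0031). Rorb turned on VPA in wildtypes without low-Th libraries (-0.019) and on ACY957 in mutants by voom (0.025).

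With each library left out, the sign turned for Rorb between labels on VPA (-0.045 to 0.12) and the vehicle of ACY957 (-0.14 to 0.036) and for Clock on the vehicle of VPA (-0.11 to 0.17). In wildtypes it turned on VPA for Clock (-0.22 to 0.063), Arntl (-0.20 to 0.058) and Rorb (-0.040 to 0.28), and on ACY957 for Clock (-0.050 to 0.019), Npas2 (-0.021 to 0.29) and Rora (-0.052 to 0.048). In mutants it turned on VPA for Rora (-0.043 to 0.0022) and Rorb (-0.14 to 0.0093), and on ACY957 for Clock (-0.052 to 0.055), Rora (-0.056 to 0.054) and Rorb (-0.070 to 0.036). It turned for the VPA interactions of Clock (-0.11 to 0.17) and Rora (-0.013 to 0.14) and the ACY957 interactions of Clock (-0.035 to 0.074), Rora (-0.044 to 0.077) and Rorb (-0.0041 to 0.17).

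Counts of called genes moved more. On VPA between labels the 157 became 262 by DESeq2, 253 without the 16, 84 without low-Th libraries, 73 with only the compared groups and 51 to 504 with each library left out, the 504 without wildtype replicate 3; wildtype replicates 1, 2, 4, 5 and 6 and mutant replicates 2, 3, 6, 7 and 8 also moved it over 1.5 times. Over the 4 treatments the 252 became 611 without the 16 and 126 to 325 with each library left out, the 126 without wildtype replicate 2 on the vehicle of VPA. On ACY957 the 0 became 5 by DESeq2, 20 without the 16, 8 with only the compared groups and 0 to 2 with libraries left out. On the vehicle of VPA the 1 became 2 by DESeq2, 3 with no filter or pooled vehicles, 4 without the 16, 0 with only the compared groups and 0 to 2 with libraries left out. On that of ACY957 the 2 became 1 by voom, 22 without the 16, 0 with only the compared groups and 0 to 3 with libraries left out. VPA in mutants gave 28 by DESeq2, 0 by voom, 20 with no filter, 0 without the 16, 130 with pooled vehicles, 2 without low-Th libraries, 0 with only the compared groups and 3 to 269 with libraries left out (VPA replicates 1 to 6 and 8 and vehicle replicates 1, 3 and 10), in place of 9. ACY957 in mutants gave 6 by DESeq2, 3 by voom, 0 without the 16, 119 with pooled vehicles, 2 without low-Th libraries or with only the compared groups and 1 to 4 with libraries left out, in place of 1. In wildtypes VPA gave 0 to 5 with libraries left out in place of 4, and ACY957 gave 0 by voom and with only the compared groups in place of 1. The VPA interaction gave 2 with no filter, 0 without the 16, with pooled vehicles or with only the compared groups, and 0 to 2 with libraries left out, in place of 1.

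Per kilobase of the longest coding transcript, the levels were 7.24 for Clock, 6.60 for Arntl, 6.86 for Rora and 1.65 for Rorb. Pairs of the 5 genes that passed by Pearson r in wildtype libraries numbered 4 on deviations from treatment means and 4 without TMM, and 2 and 4 in the upper set. Marker relations that passed by Pearson r without low-Th libraries numbered 2 in wildtype libraries, 0 in their upper set and 4 in the mutant lower set. Of the 5 genes most like each, 3 for Npas2, 2 for Arntl and 3 for Rorb were shared on deviations from group means.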
